A study of Mus musculus with 6 samples.

Results

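Tyrobp, Fcer1g, C1qa, C1qb, C1qc, Lyz2, Ctss, Csf1r, Cd68 and Aif1 are 10 genes widely used to mark macrophages and related myeloid cells. They were followed here in RNA of the sorted side population of the anterior pituitary of mice to ask whether the myeloid content of the sort differs with genotype or with time. All probes whose gene name on the array equals one of these symbols were taken, which gave 13 probes for 10 of the 30175 gene names on the array. Csf1r had 3 probes, Cd68 had 2, and each of the other 8 genes had 1.

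Female mice of 2 genotypes were compared. GHCre/iDTR mice (called GHCre) carry a Cre recombinase under a growth hormone driver together with an inducible diphtheria toxin receptor, so that toxin reaches cells in which that driver was active. The -/iDTR mice (called control) carry the receptor without the Cre. Toxin was given to both genotypes, at 4 ng for each g of weight and 2 doses daily, for either 3 or 10 days, so no group was free of it. Side population cells, which pump out the Hoechst dye, were sorted with the Sca1-high cells left out. A sort typically started from 25000 to 50000 cells, and 1 ng of RNA per sample was amplified. The 6 arrays are 2 of GHCre after 3 days, 2 of control after 3 days, 1 of GHCre after 10 days and 1 of control after 10 days. Age and the number of mice per sort are not given in the sources used here. The free-text descriptions of 3 samples go against their titles. Groups follow the titles, which the fields for genotype and treatment bear out.

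Levels are log2 signal relative to the 75th percentile of the same array, so 0 marks that percentile, and levels of different probes are not comparable. That percentile lay between 186.15 and 298.51 signal units, and from 53.8% to 65.7% of probes were well above background, lowest for both measures on the first control array of 3 days. The arrays lay on 3 slides. The first slide held GHCre replicate 1 and control replicate 1 of 3 days, the third held the GHCre array of 10 days with GHCre replicate 2 and control replicate 2 of 3 days, and control after 10 days stood alone on the second. The 10-day comparison between genotypes, the change with time in control and the change of the genotype effect therefore cannot be told apart from slide. Of the pituitary markers, Sox9 was above background on all 6 arrays, while Sox2, which marks pituitary stem and progenitor cells, was above it on none. Gh, the hormone gene whose driver carries the Cre, had levels of 5.46 and 2.20 in GHCre after 3 days against 5.69 and 3.65 in control. After 10 days it had 2.21 in GHCre against 7.86 in control. Other hormone genes were also lower in GHCre then, by log2 differences of -7.23 (Cga), -3.86 (Pomc), -3.7 (Lhb) and -3.28 (Tshb), while Prl was at 0.32. Of 11 pituitary genes tested, 3 were above 0 after 10 days and 8 below, with a median of -2.0. Cga, Pomc, Lhb and Tshb were named after their values were seen, and the cause was not tested.

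Macrophages reside in most tissues and clear dying cells, and the 10 genes stand for separate parts of that work. Tyrobp and Fcer1g encode small adaptor proteins whose immunoreceptor tyrosine-based activation motif (ITAM) carries the signal of many surface receptors; natural killer cells use both as well. C1qa, C1qb and C1qc encode the chains of C1q, which starts the classical complement pathway and tags dying cells. Csf1r is the receptor for CSF1 and IL34 on which most macrophages depend, Lyz2 and Ctss encode a lysozyme and a lysosomal protease, Cd68 is a lysosomal membrane glycoprotein, and Aif1 encodes the cytoskeletal protein IBA1.

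The array reads each gene through a probe of 60 bases, and the probes of 3 members that behaved differently are shown, 5′ to 3′, with positions on mm9 as the array annotation gives them. The Tyrobp probe lies at chr7:31200651-31202378 on the plus strand, a span longer than the probe itself. Its capitals, bases 39 to 50, are the codons of a Tyr-x-x-Leu element of the ITAM. The C1qa probe, at chr4:136452409-136452468 on the minus strand, was above background on no array. The C1qb probe, at chr4:136436578-136436637 on the minus strand, was above background on all 6.
Tyrobp: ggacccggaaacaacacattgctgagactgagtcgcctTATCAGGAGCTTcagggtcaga
C1qa: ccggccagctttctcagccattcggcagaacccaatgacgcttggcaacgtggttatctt
C1qb: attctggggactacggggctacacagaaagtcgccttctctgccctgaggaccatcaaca

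Both ITAM adaptors were higher on every GHCre array than on every control array after 3 days. C1qb, Ctss, Lyz2 and the leading probe of Cd68, which read macrophage functions, overlapped between the genotypes. The leading probe of Csf1r was lower on both GHCre arrays, C1qc was above background on both GHCre arrays and on neither control array, and C1qa and Aif1 were not above background on any array. Of all tested probes, 17.1% were higher in GHCre after 3 days without overlap of arrays and 20.5% were lower. No member passed the test in any comparison.

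**Figure D1:**
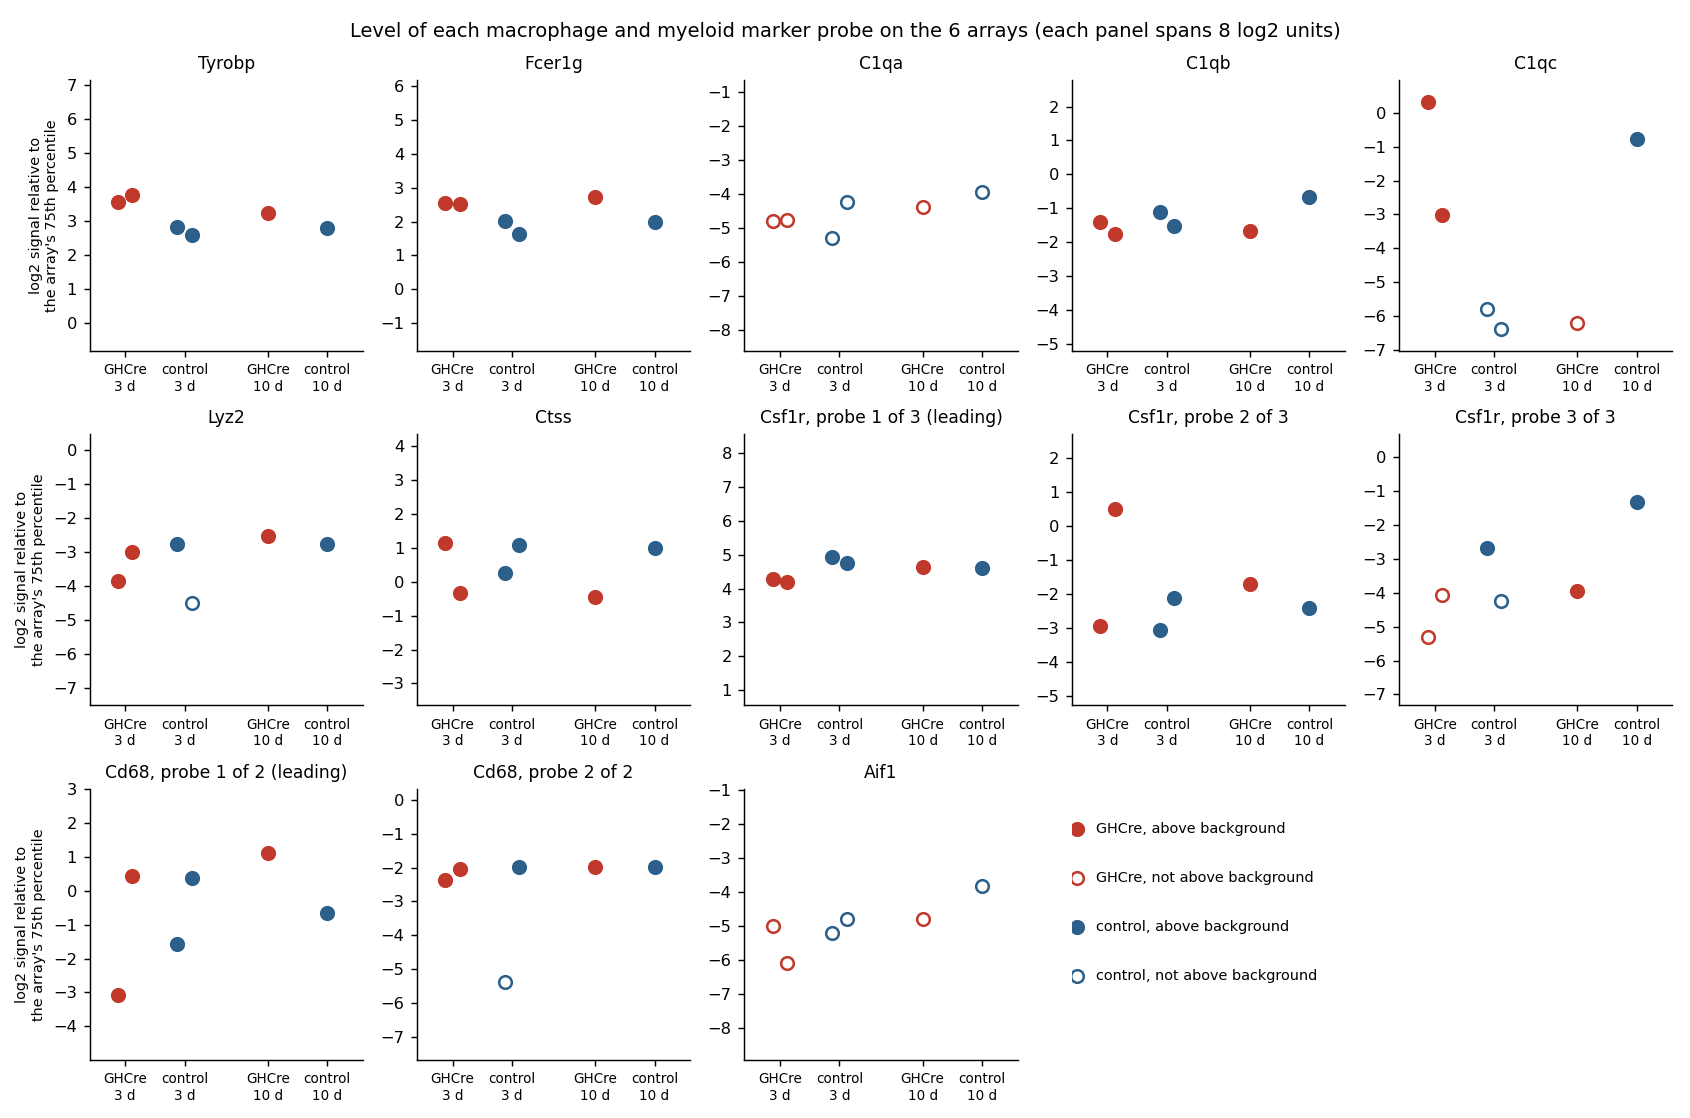
Level (y axis, log2 signal relative to the 75th percentile of the array) of each of the 13 marker probes, 1 point an array, with GHCre in red and control in blue at 3 and 10 days; open points are not well above background. Tyrobp and Fcer1g separate the genotypes after 3 days within a narrow range (17.1% of all tested probes are higher in GHCre without overlap). C1qc spans more than 6 units, and C1qa and Aif1 are open on all 6 arrays.

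Tyrobp, the adaptor also called DAP12, had levels of 3.55 and 3.75 on the GHCre arrays of 3 days, against 2.81 and 2.58 on the control arrays. After 10 days its level was 3.23 in GHCre and 2.78 in control. The genotypes did not overlap after 3 days, and the lone GHCre array of 10 days lay between these sets. The difference after 3 days was 0.95 ± 0.43 (log2, SE), a 1.93-fold higher signal, with limma's unadjusted p = 0.092 and adjusted p = 0.802. Its 95% interval ran from -0.24 to 2.14. GHCre was above control by 0.73 within the first slide and by 1.17 within the third.

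Fcer1g, the common gamma chain of Fc receptors, lies at chr1:173159794-173159853 (mm9, minus strand). Its levels were 2.54 and 2.52 on the GHCre arrays of 3 days, against 2.01 and 1.64 on the control arrays, again without overlap. The difference was 0.71 ± 0.44 (limma, adjusted p = 0.861; 95% interval -0.50 to 1.92), with 0.53 within the first slide and 0.88 within the third. After 10 days Fcer1g had 2.73 in GHCre and 1.99 in control, a difference of 0.74 ± 0.62. Its effect at 10 days minus that at 3 days was 0.03 ± 0.76, and that of Tyrobp was -0.50 ± 0.75.

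Both adaptors also ran close to each other across the 6 arrays. The root mean square difference of their centred levels was 0.222 log2 units, against a median of 0.654 between Tyrobp and all other genes above background on all arrays, of which 0.557% were closer to Tyrobp than Fcer1g was. All pairs of the 8 tested members were compared, and this pair was the closest. For Tyrobp with the other tested members, from 51.1% (Csf1r) to 100% (C1qc) of those genes were closer. These are descriptions over 6 arrays that share their scaling.

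The C1q genes lie side by side on chromosome 4 in the order C1qb, C1qc and C1qa and their values took different courses over the arrays. C1qb had levels of -1.41 and -1.75 in GHCre after 3 days, against -1.11 and -1.53 in control. These overlap, and the difference was -0.26 ± 0.46 (limma, adjusted p = 0.937). After 10 days C1qb had -1.68 in GHCre and -0.67 in control, where the highest of its 6 values stood. C1qa lay between -4.80 and -4.37 on the GHCre arrays and between -5.30 and -3.95 on the control arrays, not above background on any, and was not tested.

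C1qc, at chr4:136445766-136445825 (mm9), had levels of 0.32 and -3.03 on the GHCre arrays of 3 days, against -5.78 and -6.37 on the control arrays, both not above background. After 10 days it was -6.19 in GHCre, not above background, and -0.76 in control. Control replicates of 3 days thus sat at the floor and the control array of 10 days did not, while in GHCre the array of 10 days was at the floor. The mean GHCre level after 3 days was at least 5.84-fold that of control, a bound on group means that rests more on GHCre replicate 1 than on replicate 2. After 10 days it was lower in GHCre by at least 11.4-fold. The fitted difference after 3 days was 4.72 ± 1.27 (limma, unadjusted p = 0.0203, adjusted p = 0.703), the one member among the tested probes under an unadjusted 0.05 in that comparison, where 4.07% of all 27252 probes were higher in GHCre and 2.6% lower at that level. Without GHCre replicate 1 it was 3.04 and without GHCre replicate 2 it was 6.40, and the GHCre arrays had an SD of 2.37. With normexp background correction, which adds an offset of 50 to the signal, the difference was 1.36, and the bounds were computed on the processed signal only.

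The C1qc probe is printed 10 times on each array, which gives the spread between spots of 1 array. The SD over the 10 spots was 0.05 on GHCre replicate 1 and 0.16 on GHCre replicate 2 of 3 days, against 0.09 and 0.05 on the control arrays. All 10 spots were above background on both GHCre arrays of 3 days and on control after 10 days, and 0 of 10 were on either control array of 3 days. On the GHCre array of 10 days 1 spot was flagged and left out.

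**Figure D2:**
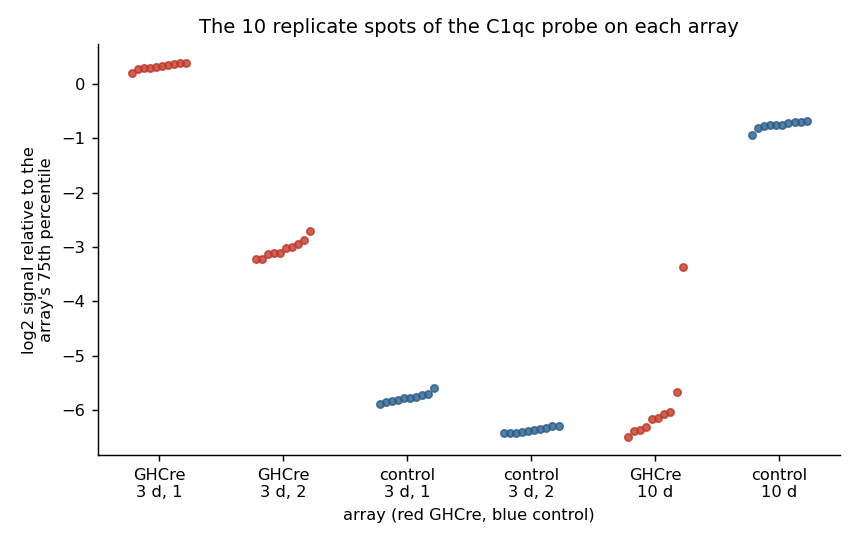
The 10 replicate spots of the C1qc probe (y axis, log2 signal relative to the 75th percentile) on each array, GHCre in red and control in blue, spread sideways only for visibility. The spots of an array lie together except 1 flagged spot on GHCre after 10 days, while the 2 GHCre arrays of 3 days stand more than 3 units apart.

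The start regions of Fcer1g and C1qc, the members besides Tyrobp with no overlap and higher levels in GHCre, are shown because their signals varied in different ways. The 250 bases before the start of transcription come from RefSeq on GRCm38.p6, another build than the probes, on the minus strand in both genes: chr1:171234350-171234599 for Fcer1g and chr4:136892915-136893164 for C1qc. Of the 10 members 7 were matched in that table. Tyrobp, C1qa and Csf1r were not. GAGGAAGT, 1 exact form of the site bound by the myeloid factor PU.1 (gene Spi1), and its reverse ACTTCCTC were searched on both strands. Shorter or other forms of the site were not searched, so a member without a match may still hold one. The searched form occurs in 2.44% of 32851 promoters and in 1 of the 7 members, C1qc. There the capitals mark the match, starting 195 bases before the start.
Fcer1g: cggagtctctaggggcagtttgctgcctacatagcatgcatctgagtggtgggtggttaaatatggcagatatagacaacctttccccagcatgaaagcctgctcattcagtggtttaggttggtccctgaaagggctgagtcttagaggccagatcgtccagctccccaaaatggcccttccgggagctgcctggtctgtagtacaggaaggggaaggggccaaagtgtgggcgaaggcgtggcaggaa
C1qc: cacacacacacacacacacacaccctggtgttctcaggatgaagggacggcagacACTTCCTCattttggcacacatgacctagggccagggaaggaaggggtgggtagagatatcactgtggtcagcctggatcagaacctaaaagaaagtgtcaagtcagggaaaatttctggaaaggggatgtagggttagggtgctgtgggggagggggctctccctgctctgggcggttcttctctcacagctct

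Spi1 itself had levels of -3.56 and -3.32 in GHCre after 3 days, against 0.64 and -4.34 in control, so its control arrays enclosed the GHCre ones. Its difference was -1.59 ± 1.80 (limma, adjusted p = 0.908).

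Csf1r, the receptor, gave 3 different pictures. Its leading probe, the one of highest mean level, starts at position 61278661 of chromosome 18 (mm9) and had 4.29 and 4.18 in GHCre after 3 days, against 4.93 and 4.75 in control. The genotypes did not overlap and the difference was -0.60 ± 0.42 (limma, adjusted p = 0.873), with -0.64 and -0.56 within the slides. After 10 days it was 4.64 in GHCre and 4.60 in control. The probe at 61290725 had -2.96 and 0.50 in GHCre, against -3.07 and -2.13 in control (1.37 ± 1.33). The probe at 61289398 was above background on neither GHCre array of 3 days (-5.32 and -4.06), and on 1 of 2 control arrays (-2.68 and -4.23), with -3.94 in GHCre and -1.32 in control after 10 days. Its difference after 3 days was -1.23 ± 0.82, with overlap, at -2.64 within the first slide and 0.17 within the third.

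The leading Csf1r probe is of simple sequence. It holds 27 distinct triplets in its 60 bases, and 2.4% of 39429 probes hold as few, where the median is 36. The other Csf1r probes hold 30 and 40. Whether the leading probe also binds other transcripts was not tested, and of the other probes 1 was lower and 1 higher in GHCre after 3 days, both with overlap.

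The lysosomal members did not separate the genotypes. Ctss, the cathepsin that processes the invariant chain of MHC class II, lies at chr3:95360245-95360304 (mm9). It had 1.15 and -0.33 in GHCre after 3 days, against 0.27 and 1.09 in control (-0.27 ± 0.73, limma, adjusted p = 0.958). The sign differed between slides, at 0.88 within the first and -1.42 within the third. After 10 days Ctss had -0.44 in GHCre and 1.01 in control.

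Lyz2 had -3.86 and -3.01 in GHCre after 3 days, against -2.77 and -4.51 in control, the last not above background. The difference was 0.20 ± 0.80 (limma, adjusted p = 0.972). Its neighbour Lyz1 is near identical, so their signals may not be separable. Lyz1 had -2.81 and -1.60 in GHCre, against -2.77 and -3.86 in control.

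The leading Cd68 probe had -3.08 and 0.43 in GHCre after 3 days, against -1.56 and 0.37 in control, and 1.11 in GHCre against -0.66 in control after 10 days. Its second probe had -2.38 and -2.04 in GHCre after 3 days, against -5.37, not above background, and -1.99 in control. The probes disagree in sign after 3 days, at -0.73 ± 1.47 and 1.47 ± 1.27. Aif1 lay between -6.09 and -4.79 on the GHCre arrays and between -5.21 and -3.81 on the control arrays, with 0 of 6 above background.

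Over the members, 8 genes (11 probes) had a probe above background on at least 2 arrays and were tested. After 3 days 0 of them passed an adjusted p of 0.05 in either direction, as did 0% of the 27252 probes tested, with limma. By their leading probes 4 of the 8 were above 0 and 4 below, with a median difference of -0.03, against -0.03 over all tested probes. The median was 0.12 within the first slide and 0.47 within the third, and 0.29 with the mean of each gene's probes. Arrays did not overlap for 3 genes that were higher in GHCre (Tyrobp, Fcer1g and C1qc) and 1 that was lower (Csf1r), while 17.1% of all probes were higher and 20.5% lower in this way. The members' summed linear signal, in units of the 75th percentile, was 41.1 and 40.1 in GHCre, against 43.6 and 39.8 in control, and it rests largely on the leading probes of Csf1r and Tyrobp. In RNA from sorted cells, fewer cells of a type and less RNA per cell cannot be told apart.

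**Figure D3:**
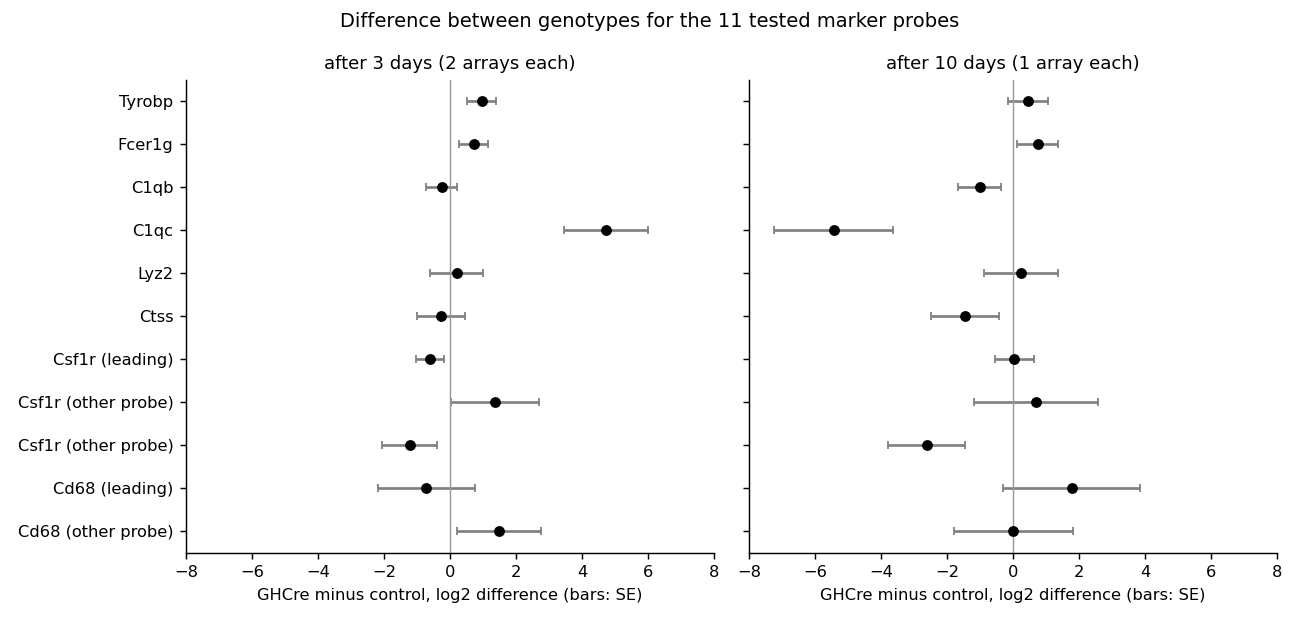
GHCre minus control (x axis, log2 difference, bars are the SE from limma) for the 11 tested probes after 3 days (left) and 10 days (right). After 3 days the SE bars of Tyrobp and Fcer1g are short and lie above 0. The bar of the leading Csf1r probe is as short and lies below 0 (-0.6 ± 0.42). The wider intervals of Tyrobp (-0.24 to 2.14) and Fcer1g (-0.5 to 1.92) include 0, and neither passed the test (limma, adjusted p = 0.802 and 0.861). C1qc is at 4.72 after 3 days and -5.43 after 10 days, each with 1 side not above background.

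After 10 days, with 1 array a genotype, the differences have no replicate check of their own, and the fit assumes that these arrays vary like those of 3 days. By leading probes 5 of 8 members were higher in GHCre and 3 lower, with a median of 0.14 (all probes 0.00), and -0.20 with the mean of each gene's probes. Among those tested 0 passed, as did 0% of all probes. At an unadjusted p under 0.05 C1qc alone of the 8 was lower, where 1.28% of all probes were higher and 1.77% lower. Higher after 3 days without overlap and higher again after 10 days held for Tyrobp and Fcer1g, and for 8.62% of all probes. C1qc was higher after 3 days without overlap and lower after 10 days, as were 8.45% of probes, and the leading Csf1r probe did the opposite, as did 9.3%. The C1qb and Ctss levels were lower in GHCre after 10 days, by 1.01 and 1.45 on the log2 scale, and C1qc was lower by the bound given above.

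Between 10 and 3 days, 0 members passed within either genotype, and 0% of all probes did. In GHCre the leading probes of 4 members were higher and 4 lower after 10 days (median 0.05, all probes 0.11), and in control 6 were higher and 2 lower (median 0.25, all probes 0.10). Control after 10 days stood alone on its slide, so the change in control cannot be told apart from slide. C1qc was at least 7.54-fold lower after 10 days than after 3 days in GHCre, and at least 8.84-fold higher in control, since in each case 1 side was not above background. It alone of the tested members was under an unadjusted 0.05 in either, where 2.22% of all probes were higher and 1.82% lower in GHCre, and 3.13% higher and 1.2% lower in control. On the slide that held both GHCre times, Tyrobp was lower after 10 days by 0.52 and Fcer1g higher by 0.20. The difference of the genotype effects, 10 days minus 3 days, passed for 0 members and for 0% of all probes. At an unadjusted p under 0.05 it was negative for C1qc and for 2.61% of all probes, and positive for 0 members and 1.53% of probes.

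Other macrophage genes were set beside the members from a list of 34, of which 24 were tested. Of these, 18 were above 0 after 3 days and 6 below, with a median of 0.78 (0.39 within the first slide and 1.05 within the third), and 0 passed the test. Arrays did not overlap for 10 higher and 3 lower genes, against 17.1% of all tested probes higher and 20.5% lower in this way. Of all tested probes 48.5% were above 0 after 3 days and 49.8% after 10 days, the shares to set beside this list and those below. Ms4a6b, a membrane protein of the MS4A family, had -2.74 and -1.37 in GHCre, against -5.83 and -6.43 in control, both not above background, at least 3.59-fold higher. Ms4a7, of the same family, had -3.03 and -1.28 in GHCre, against -5.85 and -6.41 in control, at least 3.34-fold. Mertk, a receptor for clearing dying cells, had -2.48 and -2.33 in GHCre, against -4.86 and -4.57 in control, at least 2.82-fold.

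Lilrb4, an inhibitory receptor of myeloid cells, was above background on all 6 arrays and had 1.58 and 1.02 in GHCre, against -0.74 and -1.01 in control (2.18 ± 0.47, limma, unadjusted p = 0.00968, adjusted p = 0.677). Cd14, a co-receptor for bacterial lipopolysaccharide, had -1.57 and -1.55 in GHCre, against -4.03, not above background, and -2.93 in control (1.92 ± 0.57). Lilrb4 and Cd14 were named after their values were seen. Ptprc, the pan-leukocyte CD45 gene, had -0.88 and -0.36 in GHCre, against -1.36 and -0.37 in control (0.25 ± 0.57). Adgre1, which encodes F4/80, had -3.72 and -3.31 in GHCre, against -4.26 and -3.29 in control, the first not above background. The leading Itgam probe (CD11b) had 7.0 and 7.03 in GHCre, against 7.59 and 7.32 in control, lower without overlap. It is also of simple sequence, with 24 distinct triplets, as few as in 1.04% of probes, and the other Itgam probes had -2.19 and -1.14 in GHCre against -0.05 and -2.29 in control, and -2.06 and 1.22 in GHCre against 2.59 and -1.52 in control. Mrc1, P2ry12 and Gpnmb were above background on no array. After 10 days 12 of the 24 were higher in GHCre and 12 lower (median -0.03).

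Receptors and signal transducers that work through ITAM adaptors had no common direction. Of 25 such genes 18 were tested, with 10 above 0, 8 below and a median of 0.02 (-0.64 within the first slide and 0.26 within the third). Lyn, a Src family kinase, had -2.54 and 0.00 in GHCre after 3 days and was above background on neither control array. Its GHCre mean was at least 6.18-fold higher. Fcgr3, an Fc receptor that uses Fcer1g, had -2.34 and -1.12 in GHCre against -2.99 and -2.91 in control (1.22 ± 0.60). Hcst, the neighbour of Tyrobp that encodes the adaptor DAP10, had 1.22 and 0.34 in GHCre against 0.22 and -0.81 in control (1.07 ± 0.63). Trem2, a receptor that signals through Tyrobp, had -3.10 and -0.37 in GHCre against -1.08 and -3.31 in control; it was named after its values were seen.

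Complement genes other than C1q were mostly above 0. Of 18 tested, 16 were above 0 and 2 below, with a median of 0.79 after 3 days and -0.28 after 10 days. Cfb, the alternative pathway protease, had 0.73 and 1.78 in GHCre against -1.57 and -3.10 in control (3.59 ± 0.78, limma, adjusted p = 0.677). C4b had 0.99 and 1.41 in GHCre against -3.98 and -1.65 in control, the first not above background; it has a near-identical copy, C4a, and is uncertain. Cd59a, which blocks the terminal pore, had 0.02 and -2.07 in GHCre against -4.66 and -2.87 in control.

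Ligands of the CSF1 receptor and regulators of myeloid fate were split, with 9 of 17 tested above 0 and a median of 0.14. Irf8, a transcription factor of monocytes and dendritic cells, had 1.79 and 1.98 in GHCre against -0.82 and 0.43 in control (2.08 ± 0.61, limma, adjusted p = 0.708). Csf3, a neutrophil growth factor, was above background on both GHCre arrays and neither control array, at least 3.05-fold higher. Runx1, a factor of blood development, had -1.73 and -1.57 in GHCre against -0.53 and -0.53 in control (-1.11 ± 0.42). Runx1 has 2 probes, and the mean of both turned the difference to 0.17.

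Of 20 lysosomal genes tested, 15 were above 0 and 5 below, with a median of 0.32. Arrays did not overlap for 8 that were higher in GHCre and 1 that was lower, against 17.1% and 20.5% of all tested probes. Among widely expressed members of the list, named after their values were seen, Ctsb and Lamp1 had differences of 0.00 ± 0.43 and 0.07 ± 0.43, and Lamp2, Ctsd and Ctsf had 0.70 ± 0.50, 0.68 ± 0.44 and 1.10 ± 0.67. The 3 named by lowest p were Cst7, Ctsk and Ctsw. Cst7, a cystatin, had -2.09 and -1.40 in GHCre against -4.37 and -3.76 in control, the first not above background. Ctsw, a cathepsin of cytotoxic lymphocytes, had 1.70 and 1.44 in GHCre against 0.35 and -0.46 in control. Ctsk, a collagen-degrading cathepsin, had -1.11 and -0.60 in GHCre against -2.52 and -4.42 in control, the last not above background.

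**Figure D4:**
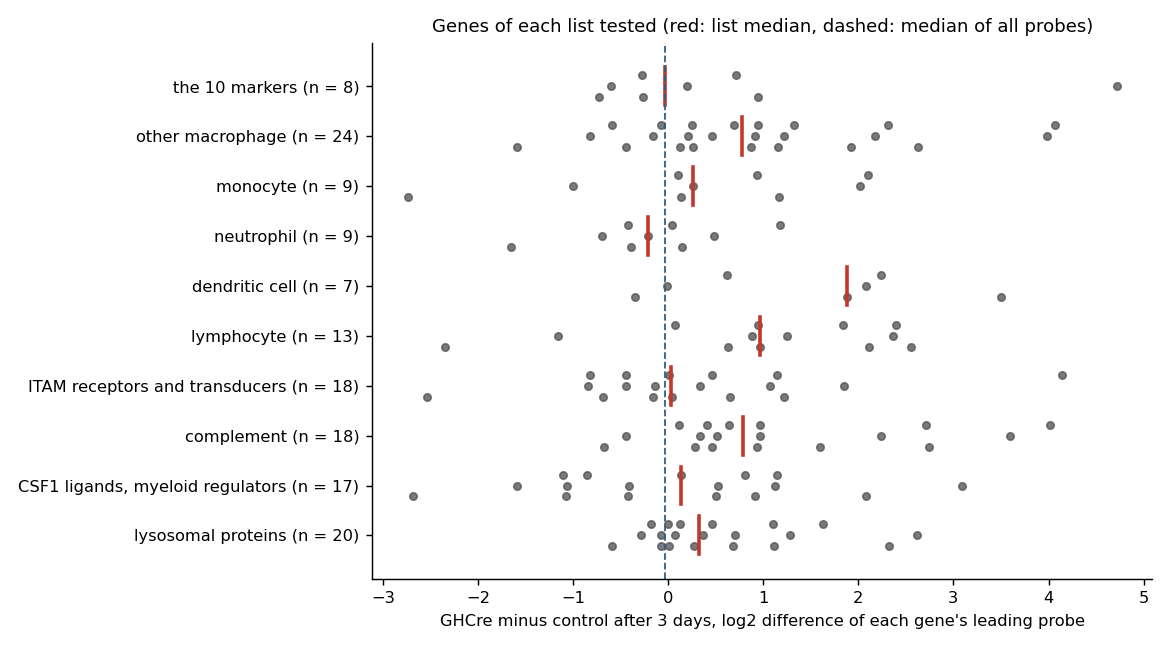
GHCre minus control after 3 days (x axis, log2 difference) for the leading probe of each tested gene, 1 row a gene list; red bars are list medians and the dashed line is the median of all tested probes. The 8 tested markers spread from -0.73 to 4.72 with a median of -0.03. The medians of the other macrophage, dendritic cell, lymphocyte and complement lists are 0.78, 1.88, 0.97 and 0.79. Those of the monocyte, neutrophil, ITAM, CSF1 and lysosomal lists are 0.26, -0.21, 0.02, 0.14 and 0.32.

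Markers of lymphocytes, which also use Tyrobp and Fcer1g, were also mostly above 0. Of 16 lymphocyte genes 13 were tested, with 11 above 0 after 3 days, 2 below and a median of 0.97 (0.85 within the first slide and 0.88 within the third). Their summed signal, in units of the 75th percentile, was 77.5 and 78.9 in GHCre against 42.1 and 42.0 in control after 3 days, and 54.7 in GHCre against 44.8 in control after 10 days. The cytotoxic genes named below hold 60.3 and 63.9 of the GHCre sums of 3 days, and 32.5 and 33.4 of the control sums. By gene, 6 of the 13 were above 0 after 10 days and 7 below, with a median of -0.01. Arrays did not overlap for 7 higher and 2 lower genes, against 17.1% and 20.5% of all tested probes, and 0 passed the test. The B cell genes Cd79b and Ms4a1 were above background on no array.

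The list holds 6 genes of cytotoxic cells, a subset taken after the values were seen: Nkg7, Gzma, Gzmb, Klrb1c, Ncr1 and Prf1. All 6 were above 0 after 3 days, 4 without overlap, with a median of 0.95, against 5 of the other 7 tested genes and a median of 1.84. Over all tested probes 48.5% were above 0, and 17.1% were higher without overlap. After 10 days 2 of the 6 and 4 of the other 7 were above 0. Gzma, which encodes granzyme A, had 4.92 and 5.15 in GHCre after 3 days against 4.17 and 3.97 in control (0.97 ± 0.43, limma, adjusted p = 0.796). Gzmb, granzyme B, had 2.31 and 2.51 in GHCre against 1.48 and 0.84 in control (1.25 ± 0.48). Nkg7 had 4.36 and 4.21 in GHCre against 2.95 and 3.75 in control, and the T cell receptor chain gene Cd3e had 3.19 and 3.34 in GHCre against 2.32 and 2.46 in control. Prf1, perforin, had 1.61 and 1.29 in GHCre against 1.55 and 1.22 in control, and Cd8a and Cd4 were lower in GHCre, at -2.35 ± 0.83 and -1.16 ± 0.46. Gzmb, Cd8a and Cd3g were named by lowest p and the others after their values were seen. Cd3g had -0.85 and -2.05 in GHCre against -2.72 and -3.85 in control.

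Cd3e ranked 9 and Gzma 29 among 14729 genes by closeness of their centred levels to Tyrobp over the 6 arrays. Their root mean square differences were 0.155 and 0.175, while Gzmb ranked 137, Nkg7 536, Prf1 1707 and Hcst 4130. Vim and Anxa1, which stand in none of the lists, ranked 7 and 14, both closer than Gzma. For Fcer1g, Vim ranked 240, Gzmb 301, Anxa1 510, Cd3e 555 and Gzma 1180. Slc17a9 was the closest to Tyrobp, at 0.105. This ranking was made after the values were seen. The mean profile of the 6 members above background on all arrays was nearly flat, between -0.24 and 0.19 after centring, and the genes most like it were as flat. Of the 8 closest, Creg2, Gm13011, Srp72 and Krt4 have symbols, with differences of 0.057 to 0.070.

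Other myeloid lists were uneven after 3 days. Of 9 monocyte genes tested, 7 were above 0 (median 0.26, and 1.02 without the first control array), with Ccr2, the receptor of inflammatory monocytes, at -0.63 and -0.96 in GHCre against -1.43 and -2.01 in control. Plac8 had a difference of 1.17 ± 0.53. The monocyte genes below 0, named after their values were seen, were F13a1 (-2.74 ± 2.0) and Treml4 (-1.0 ± 0.58). Of 7 dendritic cell genes tested, 5 were above 0 (median 1.88, with 2.61 within the first slide and 0.34 within the third, and 1.24 without that array), with Ccr7, which guides migration to lymph nodes, at least 5.61-fold higher in GHCre and Itgax (CD11c) at 2.24 ± 1.27, but Xcr1, Clec9a and Cd209a were above background on no array. Of 9 neutrophil genes tested, 4 were above 0 (median -0.21), and of 3 mast cell and basophil genes 1 was (median -0.82). S100a8, Csf3r and Retnlg of the neutrophil list had differences of -1.65, -0.42 and -0.39, and Tpsb2, Hdc and Kit of the mast cell list had -0.82, -0.82 and 0.27.

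Genes of cells outside the blood lineage were also mostly above 0 in the fibroblast and endothelial lists. Of 12 fibroblast and mural genes 11 were above 0 after 3 days (median 0.72), with a summed signal of 274 and 228 in GHCre against 208 and 141 in control. Of 9 endothelial genes 7 were above 0 (median 0.52), and of 11 pituitary genes 5 were (median -0.28, and 1.11 without the first control array). Des, Thy1 and Pdgfra of the fibroblast and mural list had differences of 2.05, 1.74 and 0.80. Esam of the endothelial list was above background on neither control array of 3 days and was at least 2.04-fold higher in GHCre. Emcn and Cdh5 had 1.92 and 2.63, with overlap for Cdh5, whose control replicate 2 was not above background. Krt8, S100b and Prl of the pituitary list had 1.63, 1.19 and -0.60, the last 0.00 with quantile-normalized values. The part of lymphocyte, fibroblast and endothelial RNA in the values of Tyrobp, Fcer1g and the other lists was not tested. Several genes stand in 2 lists, such as Itgax, Irf8 and Fcgr3, so the lists are not independent.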

How the data were processed

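Sorted side population cells were profiled on 6 Agilent 1-colour arrays. Per the file headers, Feature Extraction 10.7.3.1 quantified the scans, and what the authors deposited is a processed intensity, background-subtracted and without scaling between arrays. A deposited table for the whole series has log2 values that match quantile-normalized processed signal (r at least 0.9999 on every array, 38017 probes) and served as an alternative. Values of 43020 spots were averaged per probe (39429 probes) on the log2 scale without flagged spots, and each array's 75th percentile was subtracted; 32 probe values with every spot flagged were kept. No probe was saturated. Probes well above background on at least 2 of 6 arrays (27252) were fitted with limma 3.58.1 in R 4.3.3, with 1 mean for each of 4 groups, Benjamini-Hochberg adjustment and a threshold of 0.05. The fit had 2 residual degrees of freedom, all from 3 days, and 2.03 prior ones, and was checked on simulated data. A gene's leading probe has the highest mean level. "At least" folds set a dim group at the lowest signal above background of each array. They compare group means of log2 levels, so a single array can lie below the bound. Positions are those of mm9 in the files. The number of arrays limits the precision. The labels call the samples independent and do not say how many mice each holds, so p-values measure the spread between these samples.

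The members and gene lists were chosen with earlier results of these data known. Genes outside the members were named by lowest unadjusted p after 3 days, up to 3 a list, with Ptprc, Itgam and Adgre1 in every case, and the 8 genes nearest to the members' mean profile. Others are said to be chosen after their values were seen, or are named as a paralog, a check of the sort, the factor of a motif or genes never above background. Alternatives covered scaling, background correction, filters, probe choice, an intensity trend, replicate and slide blocks and leaving out arrays. Some genes that this rule names are not reported here.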

Additional observations from a re-analysis of the deposited data

Results flagged for a closer look

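The genotype effect of C1qc differed in direction between the times: both GHCre arrays of 3 days lay above both control arrays, and the GHCre array of 10 days lay below the control array. That last control array was alone on its slide, so a change of effect cannot be told apart from slide. The effect after 10 days minus that after 3 days was -10.15 ± 2.20 (log2, SE; limma, unadjusted p = 0.00978, adjusted p = 1), a value that rests on arrays not above background and was -3.13 and -3.25 with normexp. The leading Csf1r probe was below control on both GHCre arrays of 3 days and 0.04 above it after 10 days, a change of effect of 0.65 ± 0.73 (limma, adjusted p = 1). Neither passed the test of that difference, and in that comparison 0% of all probes did.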

How the results depend on the processing

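In 15 alternatives to the settings used, 0 probes passed the adjusted threshold in any of the 5 comparisons, and the lowest adjusted p was 0.416. Tyrobp after 3 days was between 0.83 and 1.06 and Fcer1g between 0.52 and 0.89 with each array of 3 days left out, and C1qc between 3.04 and 6.40. With normexp, which adds an offset of 50 to every signal, C1qc was 1.36 and 1.53 after 3 days and -1.77 and -1.71 after 10 days, against 4.72 and -5.43. The median over the members after 3 days was between 0.19 and 0.66 with an array left out, against -0.03 with all arrays. With the mean of all probes the members' median was 0.29 after 3 days and -0.20 after 10 days, against 0.14. The replicate numbers were not shown to pair the arrays (r = 0.09 over probes, 2 pairs). With replicate block, the members' median after 3 days stayed -0.03 and 0 probes passed. The slide block could not give the contrasts that need the lone control array of 10 days.

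These signs turned. With normexp at the 75th percentile, Lyz2 was -0.23 after 3 days and -0.07 after 10 days, the Fcer1g change of effect was -0.07, Adgre1 was -0.14 and Ncr1 was -0.12. With normexp and quantile normalization, Lyz2 was -0.01 at both times and the Fcer1g change of effect -0.07. With quantile normalization, Csf1r after 10 days was 0.00 and the Fcer1g change of effect -0.01, and with the series table Csf1r after 10 days was -0.03. Prl after 3 days was 0.00 in all 3 settings with quantile-normalized values. With the mean of all probes, Cd68 after 3 days was 0.37, Csf1r after 10 days -0.63 and its change of effect -0.47, Adgre1 -0.04, Runx1 0.17, and from 3 to 10 days in control Csf1r was 0.69 and Cd68 0.82. With the replicate block Cd68 was 1.30 there, and with the slide block C1qb from 3 to 10 days in GHCre was 0.09. The cause was not tested.

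With 1 array left out, signs turned in these ranges: after 3 days Lyz2 -0.67 to 1.07, Ctss -1.01 to 0.47, Cd68 -2.48 to 1.03, Adgre1 -0.23 to 0.75, Ptprc -0.25 to 0.74, Ncr1 -0.30 to 1.56, Prf1 -0.10 to 0.23, Trem2 -0.91 to 1.82, Ctsb -0.12 to 0.12, Lamp1 -0.04 to 0.18, S100a8 -3.51 to 0.22, Hdc -2.36 to 0.72 and Kit -0.02 to 0.57. For the change of effect they were Fcer1g -0.16 to 0.21 and Lyz2 -0.84 to 0.90. From 3 to 10 days they were C1qb -0.27 to 0.07 in GHCre, and in control Tyrobp -0.04 to 0.19, Fcer1g -0.02 to 0.35, Ctss -0.08 to 0.74 and Cd68 -1.03 to 0.90. Without the first control array of 3 days, a choice made after seeing the data, list medians were 1.09 for other macrophage, 0.81 for lymphocyte and 0.94 for complement genes, against -0.11 over all probes.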
